A study of Mus musculus with 24 samples.

Results

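The cytosolic ribosomal protein genes encode the protein part of the ribosome that translates nuclear messages in the cytoplasm. The members were found by name: protein-coding genes whose symbols are Rpl or Rps and a number, with an optional short suffix, together with the stalk genes Rplp0, Rplp1 and Rplp2 and with Rpsa. The Rps6k kinases and pseudogene names were left out. Of 83 genes with such names in the table, 81 met the rule, 49 of the large subunit and 32 of the small subunit, out of 18240 genes in all. Rpl3l, a paralogue known from striated muscle, was left out by the minimum mean of 10 with a mean normalized signal of 6.21, and Rps4l was left out because it is not annotated as protein-coding. All 81 members passed that minimum and were tested. The members lie on 19 chromosomes, with 14 on chromosome 7 and 4 on the X chromosome.

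Bulk RNA-seq measured polyadenylated RNA of mouse prefrontal cortex at postnatal day 40 in 24 libraries, all of strain C57BL/6J. The 4 arms each had 3 female and 3 male libraries: wild type given vehicle (WT vehicle), and Dyrk1a+/I48X heterozygotes (HT) given vehicle, fluoxetine or lithium. Fluoxetine is a serotonin reuptake inhibitor, lithium is a mood stabilizer, and Dyrk1a encodes a dosage-sensitive protein kinase. The design asks how the heterozygous genotype and each drug change the transcriptome, and no wild type animals given a drug are among the libraries, so a drug effect is seen in heterozygotes only. Doses and the length of treatment are not stated in these sources. The labels tie no library to an animal, and p-values therefore describe only the spread among these libraries, which may be technical.

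Several facts of the libraries bear on every value below. Depth was 24133344 to 35940460 reads. Batch P40_L2 held 7 libraries, all 6 of HT lithium and HT fluoxetine female 3, and batch P40_L1 held the other 17, so lithium and batch cannot be told apart except through that 1 fluoxetine library. Dyrk1a RNA does not check the genotype labels: its normalized signal was 2200 ± 90.8 in WT vehicle, 2355 ± 61.2 in HT vehicle, 2476 ± 97.5 in HT fluoxetine and 2447 ± 113 in HT lithium (SD, n = 6 each), with no HT arm below the wild type. All 11 cortical excitatory neuron markers were above 0 in every library, with a summed signal of 112290 to 232570. Olfactory bulb markers summed to between 168 and 20185. The 6 libraries with the highest mean log2 values, 10.36 to 10.95, are called high in them, and the others reached 9.41. They are WT vehicle female 2, HT vehicle female 2 and male 3, HT fluoxetine female 1 and male 1, and HT lithium male 1. Marker lists of other cell types are given below, for each comparison between arms, where at most 1 tested marker lay on the other side of 0; no marker of these lists was called between arms, and their part in the members' values was not tested. A further 3 libraries had over 10 times the median of the striatal gene Drd2 (HT vehicle male 1) or of the choroid plexus gene Ttr (HT vehicle female 1, HT fluoxetine female 2). WT vehicle female 1 was just under that limit, at 9.74 times the median of Drd2, so fits without the libraries high in Drd2 or Ttr leave out HT libraries only.

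A ribosome is built from a small subunit, which decodes the message, and a large subunit, which joins amino acids. Its proteins are needed in fixed proportions, and their messages are known as a coordinately controlled set. Many of them begin with a 5′ terminal oligopyrimidine (TOP) run, a C followed by further pyrimidines at the cap, through which mTOR signalling controls their translation. Neurons also translate in dendrites and axons, where messages of ribosomal proteins are known to be carried.

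The DNA around the annotated starts is shown for members on which the results below turn, and for stalk, small subunit and least variable members beside them. Of the 81 members, 61 matched the RefSeq promoter table of GRCm38.p6, with 72 starts. Each window is the transcript strand, 5′ to 3′, from 15 bases before the start to 15 bases from it onward. Capitals mark a C followed by at least 4 further bases that are C or T, beginning within 5 bases of the annotated start.
Rpl41, chr10:128549154-128549183, minus strand: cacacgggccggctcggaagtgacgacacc
Rpl36a, chrX:134585639-134585668, plus strand: gtgcacccaggcaccgcctataaacttccg
Rpl38, chr11:114668565-114668594, plus strand: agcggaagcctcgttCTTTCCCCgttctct
Rpl13a, chr7:45128731-45128760, minus strand: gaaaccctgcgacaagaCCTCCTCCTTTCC
Rps10, chr17:27635230-27635259, minus strand: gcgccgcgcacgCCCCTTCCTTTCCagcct
Rplp2, chr7:141447636-141447665, plus strand: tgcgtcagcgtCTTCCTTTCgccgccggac
Rps6, chr4:86857353-86857382, minus strand: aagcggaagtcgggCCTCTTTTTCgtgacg
Rps27, chr3:90213634-90213663, minus strand: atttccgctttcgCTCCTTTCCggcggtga
Rpl15, chr14:18270972-18271001, minus strand: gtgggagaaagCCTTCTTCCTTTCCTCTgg
Rpl4, chr9:64173372-64173401, plus strand: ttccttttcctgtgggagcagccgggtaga

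Such a run stood at 31 of 72 member starts (43.1%), against 3048 of 15517 starts of other tested genes (19.6%) and 18.3% of all promoters of that length in the table. Rpl38, Rpl13a, Rps10, Rplp2, Rps6, Rps27 and Rpl15 hold it in the windows shown, and Rpl41, Rpl36a and Rpl4 do not. Annotated starts can lie some bases from the true ones, so no run in a window says only that it is not at the annotated base. Of motifs searched on both strands of the whole promoter entry, the ETS core CCGGAAGT was in 16.7% of member promoters, 6.8% of those of other tested genes and 3.89% of all in the table. The YY1 core AAGATGGC was in 11.1%, 3.73% and 2.75%, the GC box GGGCGG in 62.5%, 58.9% and 35.7%, and the TATA box TATAAA in 9.72%, 7.59% and 13.6%, in the same order. Counted by gene, the GC box was in 63.9% of members and 65.8% of other tested genes. The 29 members with a run and the 32 without had median correlations with the other members of 0.80 and 0.74 across the 24 libraries, given as a description.

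Members took 0.806% to 1.14% of a library's signal. Per kilobase of the APPRIS principal transcript, the highest levels were those of the stalk protein gene Rplp1 (19217 per kilobase), the small subunit gene Rps29 (12492) and the small subunit gene Rps15 (10816). The lowest were Rps27 (238 per kilobase), Rpl12 (281) and Rps27l (283). The low levels of Rps27 and Rpl12 stand beside near-identical copies with far more signal, described further on. Rpl3, a core protein near the peptidyl transferase centre, was at 8244 per kilobase.

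The 81 genes went up and down together from library to library. A member's correlation with the mean of the other members, over log2 deviations in 24 libraries that share depth scaling, had a median of 0.80, and 56 of 81 were above 0.7. Among 16744 other tested genes, which were not matched to the members in transcript length, the median was 0.012 and 139 (0.830%) were above 0.7. Only 7 members were below 0.3, among them Rps6, Rpl22l1, Rpl7l1 and Rps2, and Rps27 was the sole member below 0, at -0.53. Among the 5 other tested genes most like the members were S100a1 (0.894), which encodes a calcium-binding protein, the noncoding 2410006H16Rik (0.890), Gm7536 (0.885) and Gm15500 (0.877). Gm7536 and Gm15500 are near-identical copies of Rpl27a and Rpl5.

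**Figure D1:**
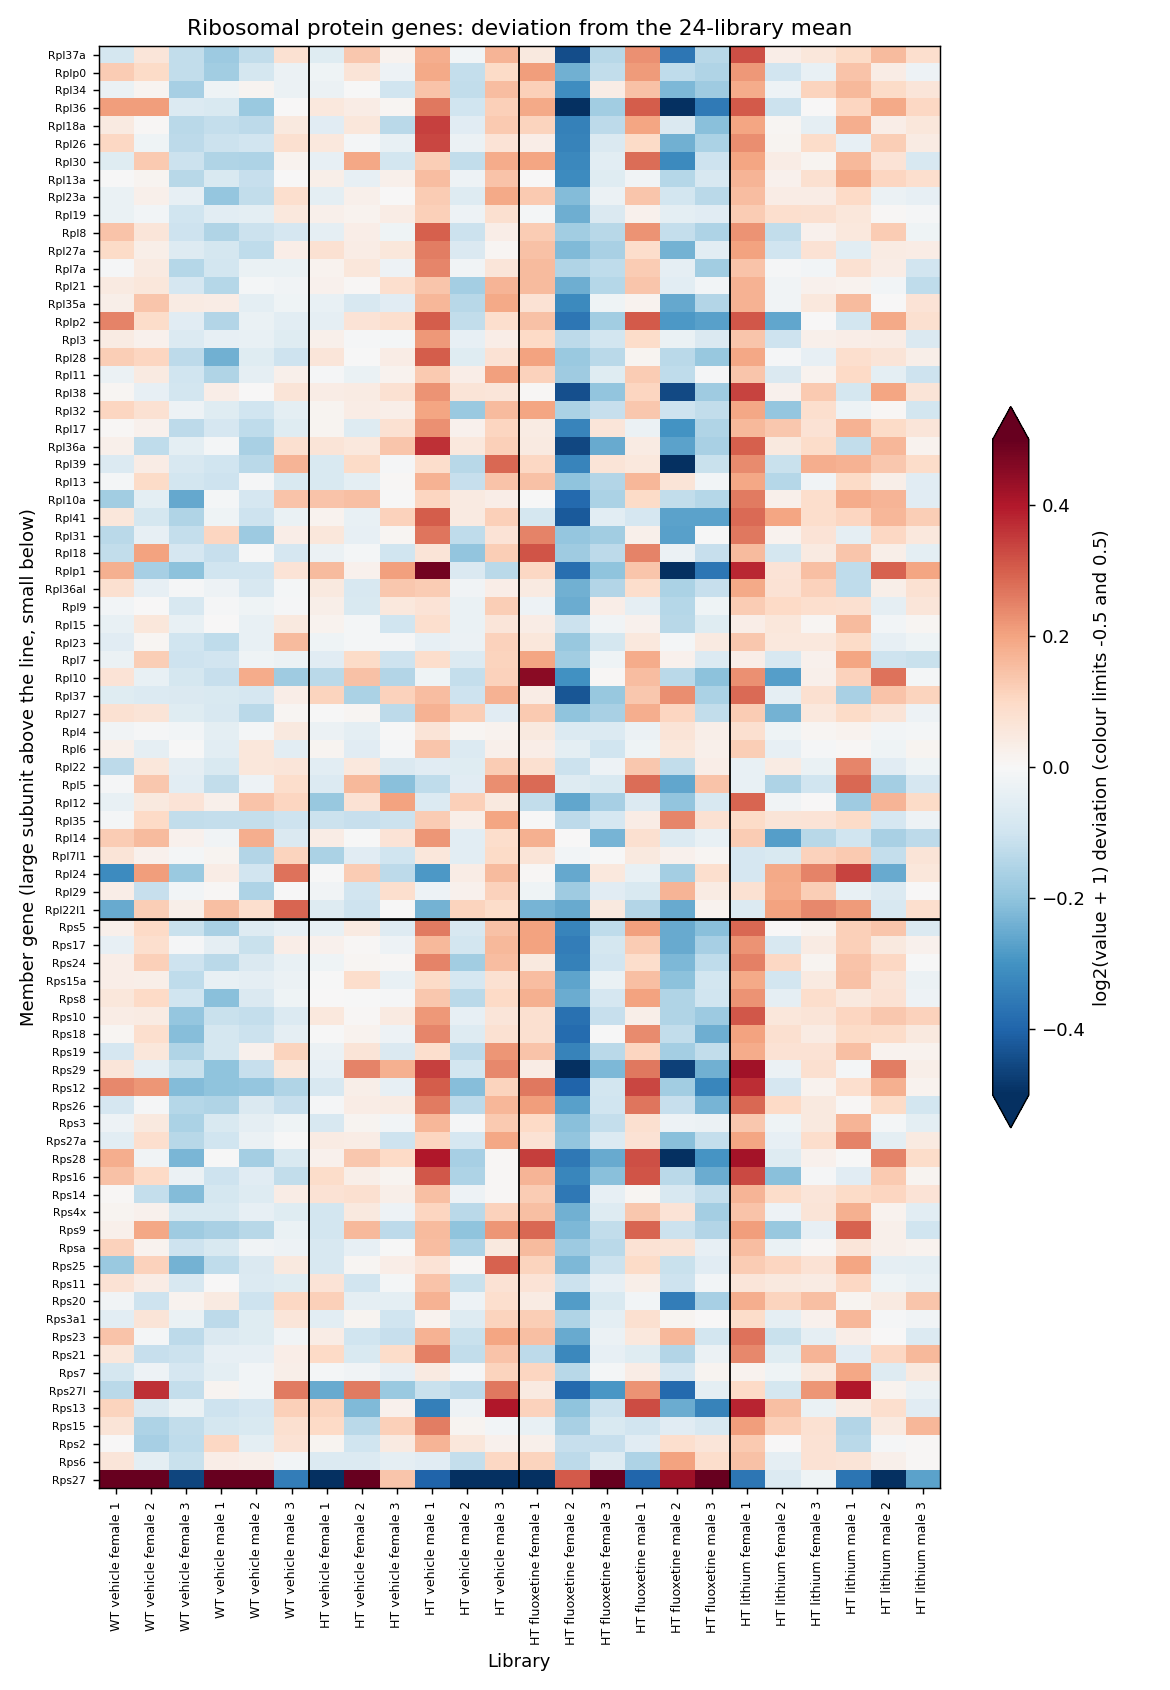
Deviation of each of 81 members (rows, large subunit above the line and small subunit below, each ordered by correlation with the other members) from its mean log2(value + 1) over 24 libraries (columns, with lines between the arms). HT fluoxetine female 2 is blue and HT lithium female 1 red over most rows, and Rps27 in the bottom row runs against the rest.

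The large and small subunit genes showed the same pattern. In each library the median deviation of the 49 large subunit genes from their 24-library means was set beside that of the 32 small subunit genes. The medians were correlated across 24 libraries, with Pearson's r = 0.987 (two-sided permutation p = 1e-05, the smallest that 100000 resamples can give; adjusted over 2 relations, 2e-05) and Spearman's rho = 0.975 (permutation p = 1e-05, adjusted 2e-05). Both medians come from the same libraries with the same depth scaling, so these p-values do not show that the subunits are controlled together. Pearson's r was 0.979 without the 2 libraries farthest from the median, 0.985 within the 17 libraries of batch P40_L1 and 0.993 within the 7 of P40_L2. The large minus small difference lay between -0.032 and 0.048 on the log2 scale, and its SD within arms of 0.019 compared with 0.088 for the large and 0.0995 for the small subunit. By arm the difference was 0.0044 ± 0.026 in WT vehicle, 0.0072 ± 0.022 in HT vehicle, 0.0015 ± 0.011 in HT fluoxetine and 0.00055 ± 0.015 in HT lithium (SD, n = 6), so the arms differed by less than the spread within them.

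Within HT fluoxetine alone the large subunit median ran from -0.24 to 0.10, while the means of the 4 arms lay between -0.064 and 0.061. The large subunit median was lowest in HT fluoxetine female 2, at -0.24, where 2 of 81 members stood above their own mean. It was highest in HT lithium female 1, at 0.17, where 75 members did, followed by HT vehicle male 1 at 0.14 with 69. In WT vehicle the large subunit deviation had a mean of -0.033 ± 0.053, with 2 of 6 libraries above 0. The means were 0.035 ± 0.078 in HT vehicle with 3 libraries above 0, -0.064 ± 0.13 in HT fluoxetine with 2, and 0.061 ± 0.066 in HT lithium with 5 (SD, n = 6). All pairs of arms overlapped. HT fluoxetine female 2 is a library high in Ttr (781), and HT vehicle male 1 is high in Drd2 (1379). The 6 libraries high in olfactory bulb markers all had large subunit medians above 0, at 0.075 ± 0.043 (SD), against -0.025 ± 0.098 in the other 18, and the part of dissection in the members' levels was not tested.

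**Figure D2:**
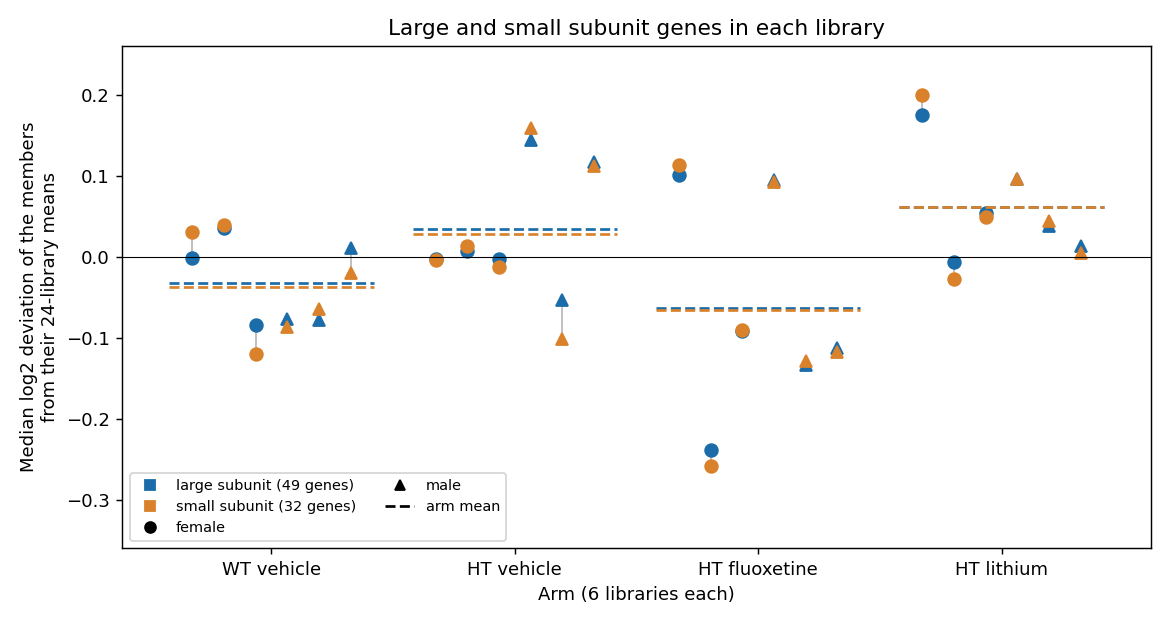
Median log2 deviation (vertical axis) of the large subunit (blue) and small subunit (orange) genes in each library, by arm; circles are female and triangles male libraries, grey lines join the values of a library and dashed lines are arm means. The blue and orange points of a library lie within 0.048 of each other while libraries spread from -0.26 to 0.20.

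Members have short messages, and the other short messages moved with them in part. The median transcript length was 835 bases for members and 3058.5 for other tested protein-coding genes. The library medians of 752 other protein-coding genes with transcripts under 1000 bases followed the members' medians with Pearson's r = 0.653 (permutation p = 0.0005, adjusted 0.0005) and Spearman's rho = 0.484 (permutation p = 0.02, adjusted 0.02). Both medians come from the same libraries with the same depth scaling, and the permutations took no account of arm or batch. Pearson's r was 0.608 in batch P40_L1 and 0.708 in P40_L2, and fell to 0.366 without HT lithium female 1 and HT fluoxetine female 2, so the relation rests in part on those libraries. In each comparison below the value for these short messages is given beside that of the members; what part RNA quality or length has in the members' differences was not tested. In bulk tissue, fewer cells of a type and less RNA per cell cannot be told apart.

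Most ribosomal protein messages had slightly higher means in heterozygotes than in wild type under vehicle, and no member passed the test. The members' library medians overlapped, at -0.033 ± 0.056 in WT vehicle and 0.034 ± 0.082 in HT vehicle (SD, n = 6). Members vary together from library to library, so counts of members here and below are not counts of independent observations. Of 81 members 71 were higher and 10 lower, with a median log2 fold change of 0.061 for the large and 0.061 for the small subunit, where 48.7% of all tested genes were higher with a median of -0.0024. By limma on log2(value + 1) with Benjamini-Hochberg adjustment over 16825 genes, 0 members and 0 genes in all (0%) were called at an adjusted p under 0.05; edgeR and DESeq2 on recovered reads also called 0 members. At an unadjusted p under 0.05 there were 3 of 81 members against 455 of 16825 genes (2.7%), shares that lie near each other. Rpl41, a very small basic protein of the large subunit, was at 0.15 ± 0.064 (SE; adjusted p by limma 1.0). Rpl10a, a large subunit protein at the L1 stalk, was at 0.15 ± 0.070, and Rps27 was at -0.62 ± 0.29. No member separated the arms completely, against 0.19% of all genes. Other short messages had a median of 0.027 and 63.4% were higher. Of 10 striatal markers 9 were higher, with sums of 7474 to 19176 in WT vehicle and 6848 to 38678 in HT vehicle, and all 6 olfactory bulb markers were lower, with a median of -0.81. Microglial markers were higher (8 of 8, median 0.12), as were astrocyte (7 of 8, 0.11) and choroid plexus markers (5 of 6, 0.44), while oligodendrocyte (8 of 8, -0.067) and red blood cell markers (5 of 5, -0.12) were lower. The members' median was 0.11 in males and 0.014 in females, and the difference was not past the threshold for any gene. The large and small medians were 0.039 and 0.043 without WT vehicle female 3, 0.040 and 0.039 without HT vehicle male 1, 0.098 and 0.10 without HT vehicle male 2, and 0.037 and 0.041 without the libraries high in Drd2 or Ttr.

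Under fluoxetine most members had lower means than under vehicle in heterozygotes, again without any member passing the test. The members' library medians overlapped between these arms. Of 81 members 70 were lower and 11 higher. The median log2 fold change was -0.091 for the large and -0.10 for the small subunit, while 49.5% of all tested genes were higher with a median of -0.0013. By limma 0 members were called, against 2 of 16825 genes (0.0119%), and edgeR also called 0. At an unadjusted p under 0.05 there were 18 members, all lower, against 5.71% of all genes in either direction. The arms did not overlap for Rpl41 and Rpl36a, against 0.47% of all genes.

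Rpl41 had a normalized signal of 5167 at the lowest, 5609 at the median and 6536 at the highest in HT vehicle, and of 3969, 4699 and 5114 in HT fluoxetine. Every fluoxetine library lay below every vehicle library of the heterozygotes. The gene is ENSMUSG00000093674, on chromosome 10 of GRCm38 from 128548114 to 128549305, minus strand. Its log2 fold change was -0.29 ± 0.064 (SE; adjusted p by limma 0.343), and -0.32 ± 0.071 within batch P40_L1. DESeq2 on recovered reads called it at an adjusted p of 0.0229, among 16 genes of 16820 (0.0951%). Leaving out single libraries gave values between -0.32 and -0.23, with adjusted p by limma of 0.238 to 0.821. Without all libraries high in Drd2 or Ttr the value was -0.20 ± 0.059. With only the compared arms in the fit it was -0.29 ± 0.077, with an adjusted p by limma of 0.999.

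Rpl36a (ENSMUSG00000079435, GRCm38 chromosome X, 134585654 to 134588062), whose product sits at the exit site of the large subunit, had 1643, 1689 and 2044 (lowest, median, highest) in HT vehicle and 1154, 1373 and 1634 in HT fluoxetine. Its log2 fold change was -0.31 ± 0.083 (adjusted p by limma 0.546), and -0.20 when its near-identical copy Rpl36a-ps2 was summed into it. Rpl38, a large subunit protein known for its part in axial patterning, was at -0.28 ± 0.084 (adjusted p 0.606) with ranges that overlapped. The acidic stalk gene Rplp1 was at -0.33 ± 0.13. On the small subunit the lowest value was that of Rps29, a zinc-binding protein, at -0.36 ± 0.13 (adjusted p by limma 0.718), where HT fluoxetine ran from 3091 to 5771 and HT vehicle from 4508 to 6094. Rps20, Rps21 and Rps10 were at -0.18, -0.19 and -0.18. Rps27 at 0.47 ± 0.29 and Rpl5 at 0.062 ± 0.10 were the largest values in the other direction. Rps10 was at -0.12 without HT fluoxetine female 2 and Rps27 at 0.31 without HT vehicle female 1, and single omissions put Rpl5 between 0.0034 and 0.14.

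The values under fluoxetine were split within the arm: HT fluoxetine female 1 and male 1, both high in olfactory bulb markers, had members above their means, and the other 4 libraries had them below. Among those 4, HT fluoxetine female 3 had the highest bulb marker mean outside the libraries called high, at 9.41. Its large subunit median was -0.092. Other short messages had a median of -0.078 and 25.9% were higher, while genes with transcripts of 4000 bases or more were at 0.020. All 10 striatal markers were lower, with a median of -0.47, and all 6 olfactory bulb markers were higher, with a median of 0.81. Meningeal fibroblast (8 of 8, 0.21), red blood cell (5 of 5, 0.23) and astrocyte markers (7 of 8, 0.14) were higher and oligodendrocyte markers (8 of 8, -0.088) lower. Without HT fluoxetine female 2 the large and small medians were -0.051 and -0.045, and without the libraries high in Drd2 or Ttr they were -0.028 and -0.023, with 54 of 81 members lower. They were -0.058 and -0.071 without HT fluoxetine male 2. The small subunit median was -0.068 without HT vehicle male 1, -0.068 without HT vehicle male 3 and -0.063 without HT fluoxetine male 3. Without the 6 libraries high in bulb markers the medians were -0.15 and -0.15, and within batch P40_L1 they were -0.075 and -0.092.

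Lithium against vehicle in heterozygotes gave smaller medians than fluoxetine against vehicle or lithium against fluoxetine. Of 81 members 64 were higher and 17 lower, with medians of 0.025 and 0.036 for the large and small subunit. By limma 0 members were called, against 0.0119% of all genes, with 0 members by edgeR and by DESeq2. The sole member at an unadjusted p under 0.05, against 2.75% of all genes, was Rpl14, a large subunit protein, at -0.17 ± 0.073 (SE; adjusted p by limma 1.0). It ran from 2187 to 2648 in HT vehicle and from 1877 to 2476 in HT lithium, and with a batch term in the fit its value turned to 0.15. No member separated the arms, against 0.166% of all genes. Other short messages had a median of 0.015, with 59.8% higher. Of protein-coding genes from 2000 to under 4000 bases, 50.9% were higher. Striatal markers were lower (9 of 10, median -0.46), as were microglial (8 of 8, -0.11) and choroid plexus markers (6 of 6, -0.11). Oligodendrocyte (8 of 8, 0.11), astrocyte (8 of 8, 0.039) and red blood cell markers (5 of 5, 0.21) were higher. Without HT lithium female 1 the large and small subunit medians were -0.0054 and 0.015, so the direction of the large subunit rests on 1 library. Without HT vehicle male 2 they were 0.0023 and 0.0037. Leaving out HT lithium female 2 gave 0.042 and 0.063 for the large and small subunit, HT vehicle male 1 gave 0.039 and 0.065, and HT lithium male 1 gave 0.014 and 0.021. Without HT lithium male 2 the large subunit median was 0.014.

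The medians between the drug arms were larger than those of either drug against vehicle. Of 81 members 76 were higher in HT lithium than in HT fluoxetine, with medians of 0.12 for the large and 0.13 for the small subunit. By limma 0 members were called, against 4 of 16825 genes (0.0238%), and edgeR also called 0. At an unadjusted p under 0.05 there were 27 members, all higher, against 5.59% of all genes in either direction. The arms did not overlap for Rpl17, Rpl13a and Rpl41, against 0.321% of all genes. These 2 arms also differ in batch for all libraries but HT fluoxetine female 3, so drug and batch cannot be told apart here.

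Rpl41 ran from 5647 to 6459 with a median of 5866 in HT lithium, above all 6 HT fluoxetine libraries. Its log2 fold change was 0.36 ± 0.064 (SE; adjusted p by limma 0.0639). DESeq2 on recovered reads called it at an adjusted p of 0.000204, among 30 of 16168 genes (0.186%). With only the compared arms in the fit, limma gave an adjusted p of 0.682. Without the libraries high in Drd2 or Ttr its value was 0.30 with an adjusted p by limma of 0.207. Without HT fluoxetine female 3 limma called it, at 0.39 with an adjusted p of 0.0379, among 6 genes (0.0357%), and other single omissions gave adjusted p up to 0.26. With a batch term, which rests on that same library, the value was 0.19 ± 0.13 with an adjusted p by limma of 1.0.

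Rpl13a (ENSMUSG00000074129, GRCm38 chromosome 7, 45125558 to 45128761), known for a role outside the ribosome in silencing inflammatory messages, had 4931, 5194 and 5538 (lowest, median, highest) in HT lithium and 3913, 4629 and 4865 in HT fluoxetine. Its log2 fold change was 0.21 ± 0.053 (adjusted p by limma 0.355). Rpl17, which lines the exit tunnel, had 4932, 5120 and 5330 in HT lithium and 3761, 4448 and 4931 in HT fluoxetine, a fold change of 0.23 ± 0.063 (adjusted p 0.430), with the closest libraries of the arms next to each other. Rps20 was at 0.25 ± 0.062, Rps10 at 0.25 ± 0.070 and Rplp1 at 0.38 ± 0.13. Rpl14 at -0.10 ± 0.073 and Rps27 at -0.46 ± 0.29 were the largest values the other way. Single omissions put Rpl14 between -0.16 and -0.052, and Rps27 was at -0.31 without HT fluoxetine female 3. Other short messages had a median of 0.088, with 76.5% higher. Of protein-coding genes from 2000 to under 4000 bases, 46.6% were higher. All 6 olfactory bulb markers were lower, with a median of -0.60. Microglial (8 of 8, -0.098), meningeal fibroblast (7 of 8, -0.16) and red blood cell markers (4 of 5, -0.055) were lower and oligodendrocyte markers (8 of 8, 0.20) higher. Without HT fluoxetine female 2 the large and small medians were 0.070 and 0.081, with 66 of 81 members higher, and without the libraries high in bulb markers they were 0.18 and 0.23.

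**Figure D3:**
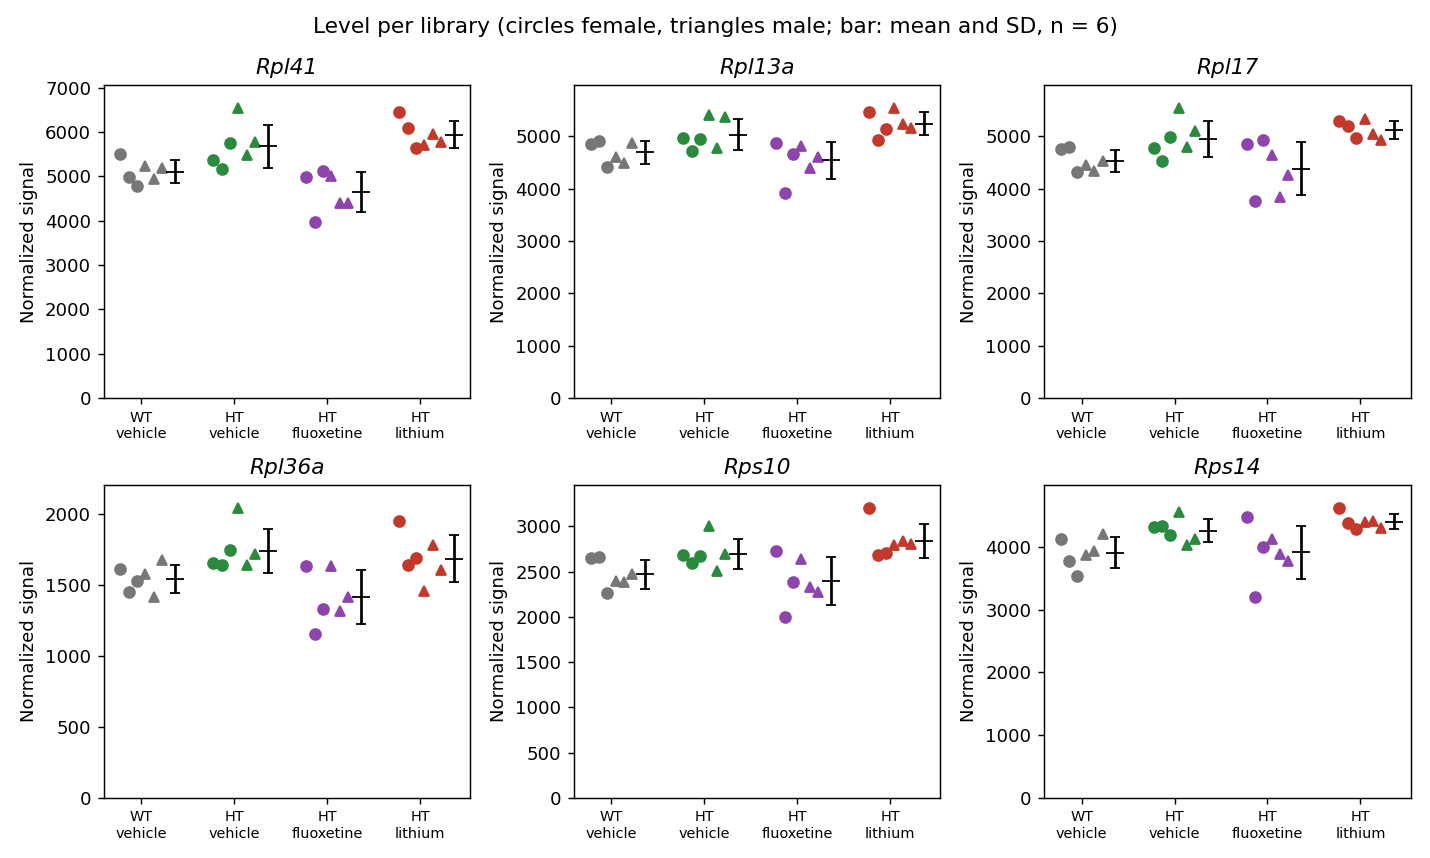
Normalized signal (vertical axis, from 0) of 6 members in each library by arm; circles are female and triangles male libraries, and the bar is the mean and SD of 6. For Rpl41 all HT fluoxetine libraries are at or below 5114 and all HT lithium libraries at or above 5647.

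Against wild type, the members' medians were above 0 in HT lithium and slightly below 0 in HT fluoxetine, where the direction turned without HT fluoxetine female 2. HT fluoxetine against WT vehicle had 49 members lower and 32 higher, with medians of -0.021 and -0.018. By limma 0 members and 0 genes (0%) were called, and edgeR and DESeq2 called 0 members. At an unadjusted p under 0.05 there were 4 of 81 members, all lower, against 737 of 16825 genes (4.38%) in either direction. The share of members was near that of all genes. These members were Rpl12 at -0.21 ± 0.075, Rpl22l1 at -0.21 ± 0.086, Rpl38 at -0.19 ± 0.084 and Rpl41 at -0.14 ± 0.064. Rpl41 was at -0.082 without HT fluoxetine female 2, with an unadjusted p by limma of 0.165, and Rpl38 at -0.12 without HT fluoxetine male 2. Rpl12, at the base of the stalk, was the single member without overlap, against 0.232% of all genes, with 338 to 383 in WT vehicle and 289 to 330 in HT fluoxetine. Summed with its more abundant copy Gm10275 it was at -0.045 ± 0.042. Other short messages had a median of -0.053, with 32.7% higher. Of protein-coding genes from 2000 to under 4000 bases, 53.5% were higher. The medians turned to 0.013 and 0.020 without HT fluoxetine female 2, and were -0.092 and -0.081 without the libraries high in bulb markers, and omitting any single library of these arms other than WT vehicle male 2 moved a subunit median by over 1.5 times. All 10 striatal markers were lower, with a median of -0.29, as were oligodendrocyte (8 of 8, -0.14), cortical excitatory (10 of 11, -0.088) and inhibitory neuron markers (7 of 8, -0.11). Astrocyte (8 of 8, 0.18), microglial (8 of 8, 0.11), meningeal fibroblast (8 of 8, 0.30), choroid plexus (5 of 6, 0.52) and red blood cell markers (4 of 5, 0.12) were higher.

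HT lithium against WT vehicle had 77 members higher and 4 lower, with medians of 0.086 and 0.10 for the large and small subunit. By limma 0 members and 0 genes (0%) were called, and edgeR and DESeq2 called 0 members. At an unadjusted p under 0.05, against 2.56% of all genes, 8 members were higher and 2 lower. Rpl41 at 0.22 ± 0.064, Rpl13a at 0.16 ± 0.053, Rpl17 at 0.18 ± 0.063, Rps10 at 0.20 ± 0.070 and Rps14 at 0.17 ± 0.063 did not overlap between the arms, against 0.214% of all genes. Rps14, whose loss is known from an acquired form of anaemia, ran from 3532 to 4209 in WT vehicle and from 4280 to 4622 in HT lithium. Rps10 ran from 2261 to 2664 in WT vehicle and from 2687 to 3205 in HT lithium. Other short messages had a median of 0.047, with 70.2% higher. Of protein-coding genes from 2000 to under 4000 bases, 49.3% were higher. This comparison, too, is between batches: with a batch term the medians were 0.11 and 0.11, while Rpl41 was at 0.018 and Rpl17 turned to -0.027. All 6 olfactory bulb markers were lower in HT lithium, with a median of -0.71, as were striatal markers (9 of 10, -0.30). Astrocyte (8 of 8, 0.14), meningeal fibroblast (7 of 8, 0.18), choroid plexus (5 of 6, 0.22) and red blood cell markers (4 of 5, 0.050) were higher. The comparisons share arms, so the same HT vehicle, HT fluoxetine or WT vehicle libraries stand behind several of them.

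**Figure D4:**
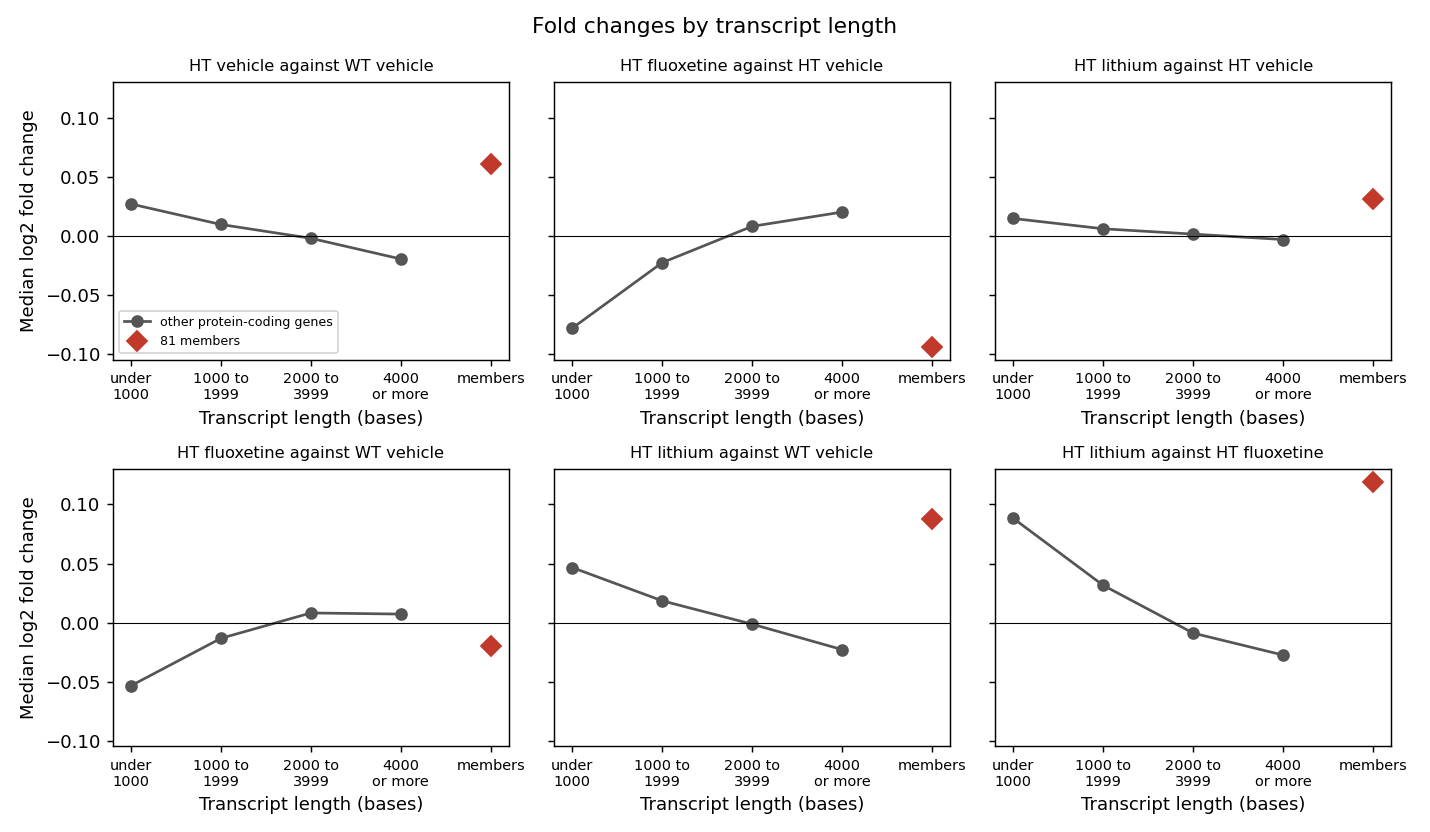
Median log2 fold change (vertical axis) of other protein-coding genes by transcript length in bases (grey points joined by lines) and of the 81 members (red diamond) in each comparison. Genes under 1000 bases and the members lie on the same side of 0 in all 6 panels, with short genes at -0.078 and members at -0.094 in HT fluoxetine against HT vehicle.

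Males against females had 53 members higher with a median of 0.013, and 0 members were called by limma, against 14 genes in all (0.0832%), with 0 members at an unadjusted p under 0.05, against 2.59% of all genes. For the difference between the sexes in an effect, 0 members and 0 genes (0%) were called in each of the 3 contrasts. At an unadjusted p under 0.05 there was 1 of 81 members in HT vehicle against WT vehicle, against 2.17% of all genes. There were 0 of 81 in HT fluoxetine against HT vehicle, against 1.07%, and 3 of 81 in HT lithium against HT vehicle, against 1.63%. Rpl35, a protein at the exit tunnel, differed by 0.33 ± 0.092 between males and females in HT vehicle against WT vehicle and by -0.31 ± 0.092 in HT lithium against HT vehicle (adjusted p by limma 0.996 and 0.998). Rps2 at -0.21 ± 0.097 and Rpl29 at -0.21 ± 0.099 were the others of the lithium contrast. These were named after their values were seen.

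The stalk recruits the factors that drive each step of elongation, and its genes differed in how far their arm means lay apart. Rplp1 had a mean signal of 9146 ± 955 in WT vehicle, 10312 ± 1671 in HT vehicle, 8275 ± 1679 in HT fluoxetine and 10624 ± 1276 in HT lithium (SD, n = 6), and its SD of log2 values over 24 libraries, 0.252, was among the 3 largest. Rplp2 had 2996 ± 302, 3111 ± 320, 2797 ± 548 and 3071 ± 428 in the same order. Rplp0, often used as a reference gene, had 4925 ± 415, 5143 ± 388, 4934 ± 692 and 5178 ± 431. All arms overlapped for these genes. In HT fluoxetine against HT vehicle Rplp1 was at -0.33, Rplp2 at -0.17 and Rplp0 at -0.068.

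For Rpsa and Rps6 all arms overlapped. Rpsa, which doubles as a laminin-binding protein, had 9148 ± 494 in WT vehicle, 9177 ± 685 in HT vehicle, 9198 ± 832 in HT fluoxetine and 9491 ± 429 in HT lithium (SD, n = 6). Rps6, the substrate of the S6 kinases, had 4098 ± 177, 4006 ± 218, 4163 ± 418 and 4253 ± 195. Its correlation with the other members was 0.24. Of the ribosomal proteins outside the naming rule, Fau was at 0.12 ± 0.061 in HT vehicle against WT vehicle and -0.058 ± 0.061 in HT fluoxetine against HT vehicle, and Rack1, a scaffold on the small subunit, was at 0.040 ± 0.088 and -0.0043 ± 0.088 (SE).

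Of the paralogues named with an l, Rpl22l1 had 552 ± 66.6 in WT vehicle, 512 ± 45.4 in HT vehicle, 477 ± 46.3 in HT fluoxetine and 562 ± 55.2 in HT lithium, and its parent Rpl22 had 1980 ± 112, 1983 ± 115, 1998 ± 142 and 2033 ± 168 (SD, n = 6). On the scale of signal per kilobase, Rpl22l1 was at 953 and Rpl22 at 974. Rpl7l1 was at 366 per kilobase and Rpl7 at 3440, Rpl36al at 2288 and Rpl36a at 3306. Rps27l, induced by p53 in other tissues, had a mean signal of 147 ± 21.7, 139 ± 22.9, 128 ± 23.3 and 151 ± 19.8 in the same order of arms. Rpl22l1 correlated with the other members at 0.026 and Rps27l at 0.63.

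Reads of a member can be split with near-identical copies, and 32 members had 40 such copies in the table (at least 95% identity over 200 bases). In 5 cases the copy had more signal than the member. Rps27 had a mean of 82.0 against 1510 for Rps27rt, Rpl12 had 349 against 3490 for Gm10275, and Rpl5, which binds the 5S RNA, had 1245 against 4511 for Gm15500. The other such pairs were Rps23 with Rps23-ps1 and Rpl10 with Rpl10-ps3. Rps27 took 6.70% ± 2.48 of the summed signal in WT vehicle, 4.23% ± 1.99 in HT vehicle, 6.46% ± 2.55 in HT fluoxetine and 3.72% ± 0.394 in HT lithium (SD, n = 6). Summed with Rps27rt, its fold change in HT vehicle against WT vehicle went from -0.62 to 0.058 ± 0.086, and in HT lithium against HT fluoxetine from -0.46 to 0.21 ± 0.086. Rps27rt alone was at 0.095 ± 0.0949 and 0.25 ± 0.0949 in these comparisons (SE). The summed values are thus mostly those of the copy and do not show which way Rps27 itself went. Levels of members with such copies are uncertain, since the deposited counting could split their reads. For 1 copy the signal followed batch. Rpl15-ps3, 100% identical to Rpl15 over 615 bases, was at 0 in every library of batch P40_L2. It ran from 5.20 to 187 in batch P40_L1. In HT lithium against HT vehicle it was called, at -5.47 ± 0.877 (SE, adjusted p by limma 0.0486). Whether reads of other copies were assigned differently between the batches was not tested.

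Spread over the 24 libraries differed widely between members. The SD of log2 values was 0.561 for Rps27, 0.257 for Rps28 and 0.252 for Rplp1, and smallest for Rpl4 (0.041), Rpl6 (0.057) and Rpl15 (0.065). Rpl4, a core protein at the exit tunnel, had 9780 ± 215 in WT vehicle, 9840 ± 268 in HT vehicle, 9805 ± 400 in HT fluoxetine and 9901 ± 260 in HT lithium (SD, n = 6). Across the 81 members, which are not independent replicates, Spearman's rho of the SD with transcript length was -0.49. The members' median SD was 0.134, against 0.177 for all tested genes.

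**Figure D5:**
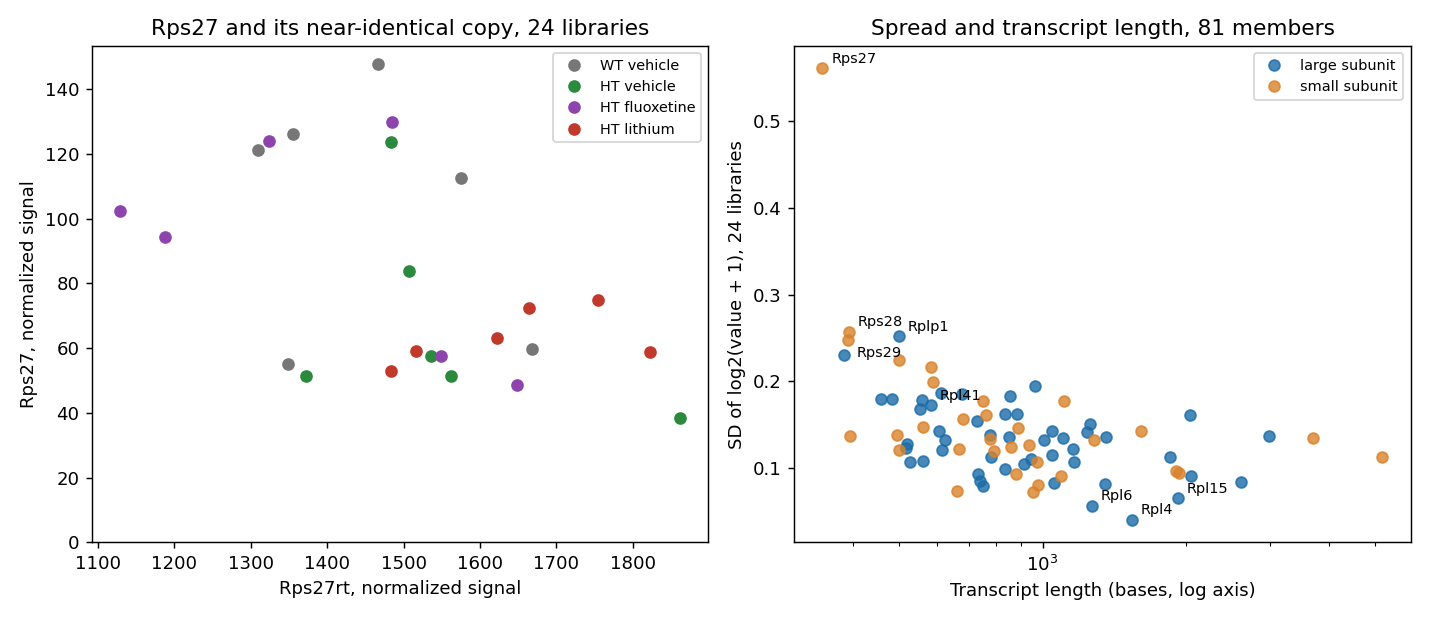
Left, normalized signal of Rps27 against that of its near-identical copy Rps27rt in 24 libraries, coloured by arm; right, SD of log2(value + 1) over 24 libraries against transcript length in bases (log axis) for the 81 members, coloured by subunit. Rps27 is at most 148 in any library, with means of 82.0 for Rps27 and 1510 for Rps27rt, and SDs run from 0.041 for Rpl4 to 0.561 for Rps27.

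Companion lists cover genes that build the ribosome, drive it or control its synthesis. Of 18 translation factors and other TOP messages 0 were called by limma in any of the 6 comparisons, with a median of 0.014 in HT vehicle against WT vehicle, 0.0050 in HT fluoxetine against HT vehicle and -0.026 in HT lithium against HT fluoxetine. Eef1b2, an elongation factor subunit, had the smallest p of the list in the fluoxetine comparison, at -0.11 ± 0.042, and Pabpc1, the poly(A)-binding protein, was at 0.095 ± 0.039. Of 32 ribosome biogenesis genes 0 were called, with medians of -0.014, 0.025 and -0.025 in those comparisons. The nucleolar proteins Nop58 and Nolc1 were at 0.19 ± 0.054 and 0.15 ± 0.047 in HT fluoxetine against HT vehicle (adjusted p by limma 0.550 and 0.606), and Utp14a was at -0.20 ± 0.057 in HT lithium against HT fluoxetine. Of 22 genes of mTOR signalling and control of ribosomal protein synthesis 0 were called, with medians of -0.031, 0.022 and -0.015. Eif4ebp2, a repressor of cap-dependent translation, was at 0.12 ± 0.054 and Gabpa, an ETS factor, at 0.21 ± 0.10 in HT fluoxetine against HT vehicle. Akt1s1, an mTOR inhibitor, was at 0.15 ± 0.052 in HT lithium against HT fluoxetine.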

How the data were processed

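The submitters quantified stranded mRNA libraries of 24 prefrontal cortex samples with Salmon 0.11.2 on GRCm38 and used R 3.6.0 and DESeq2 1.19.11, per the submitters' processing notes. The deposited table gives a normalized signal for 18240 genes, which the authors made by dividing counts by size factors as far as the values show: whole reads could be recovered within 0.01 for 100% of values. Identifiers were matched to GENCODE M21 (18227 matched, 13 not). The members and lists were chosen with earlier results of these data known. The main test was limma 3.58.1 with trend on log2(value + 1) for 16825 genes with a mean of at least 10, fitted over 8 group means with both sexes weighted equally, and Benjamini-Hochberg adjustment over all tested genes at 0.05. A fold change is on the log2(value + 1) scale. Alternatives were edgeR 4.0.16 (quasi-likelihood) and DESeq2 1.42.0 on recovered reads, pseudocounts of 0.5 and 5, no filter or a mean of at least 50, TMM scaling, a replicate block, a batch term, batch P40_L1 alone, only the arms compared, and omissions of libraries. Replicate numbers did not pair the libraries. The scripts were tested on simulated data. Named members were those with the 5 smallest p per subunit and the largest rise and fall per subunit in each comparison, with the stalk genes, Rpsa, Rps6, the paralogues and their parents, Fau, Rack1, the 3 extremes of level per kilobase and of spread, the 5 genes most like the members, and 2 genes per companion list; an item that the rule also names is not reported here. Descriptions used Python 3.11.15, pandas 2.3.3 and scipy 1.17.1. Sequences are from RefSeq, GRCm38.p6.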

Additional observations from a re-analysis of the deposited data

Results flagged for a closer look

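In arms of 6, 144 sets of values (34 named members and both subunit medians in 4 arms) were searched for a library far from the others by Dixon's criterion at 95%; chance flags about 1 in 20 sets, and 10 (6.94%) were found. HT vehicle male 1, the library high in Drd2, stood above the other 5 for Rpl36a (2044 against 1643 to 1745), Rpl38 (2744 against 2413 to 2478) and Rps10 (3003 against 2512 to 2696). HT vehicle male 3 stood above the others for Rps25 (3016 against 2324 to 2578) and for Rps6 (4427, with the others from 3792). Both of those libraries belong to the HT vehicle arm against which the drug arms were compared. HT lithium male 1 was high for Rpl22 (2364 against 1920 to 2054) and for Rpl5 (1510 against 1100 to 1206), and HT lithium female 1 was high for Rps10 (3205 against 2687 to 2841). In WT vehicle, female 3 was low for Rpl34 (1272 against 1395 to 1441) and female 2 was high for Rpl7 (4345 against 3710 to 3926).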

How the results depend on the processing

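Across the 6 comparisons between arms, the sexes and the sex differences, 0 members were called by limma and 229 of 233 recomputed counts were the same. The 4 exceptions are 1 member, Rpl41: DESeq2 on recovered reads called 1 in HT fluoxetine against HT vehicle and 1 in HT lithium against HT fluoxetine, and in the latter the replicate block called 1 (adjusted p 0.0412, with 7 genes in all, 0.0416%) as did the fit without HT fluoxetine female 3. Leaving out single libraries gave 0 to 1 members in that comparison. The replicate numbers share only a number: same-numbered libraries had deviations correlated from -0.70 to 0.72 over 84 pairs, and 11 of 24 libraries correlated best with their own number; the block changed no other count of members. All 318 recomputed subunit medians moved by less than the SD between libraries within arms. That SD, 0.088 for the large and 0.0995 for the small subunit, exceeds several of the medians, so a change of sign can pass it. In HT fluoxetine against WT vehicle the medians went from -0.021 and -0.018 to 0.013 and 0.020 without HT fluoxetine female 2. The large subunit median in HT lithium against HT vehicle went from 0.025 to -0.0054 without HT lithium female 1. Of 1837 recomputed values of named members 21 changed sign. With near-identical copies summed, chosen after seeing the data, Rps27 was at 0.058 in HT vehicle against WT vehicle and -0.14 in HT fluoxetine against HT vehicle. It was at 0.13 in HT lithium against WT vehicle and 0.21 in HT lithium against HT fluoxetine. Rpl5 was at -0.056 in HT fluoxetine against HT vehicle. These values are those of the member and its copy added together. With a batch term, in HT lithium against HT vehicle Rpl14 was at 0.15, Rpl22l1 at -0.16, Rpl34 at -0.043, Rpl13a at -0.035 and Rpl41 at -0.13; Rpl17 was at -0.027 and Rpl14 at 0.14 against WT vehicle, and Rpl14 at 0.17 against HT fluoxetine. Single omissions moved Rps29 in HT lithium against HT vehicle between -0.088 and 0.024; it was at 0.052 without the libraries high in bulb markers and at 0.0029 to 0.024 without HT vehicle female 2 (0.0078), HT vehicle male 1 (0.022), HT lithium female 2 (0.024) or HT lithium male 1 (0.0029). Rps26 in HT fluoxetine against WT vehicle was at -0.066 without the bulb-high libraries, -0.010 without HT fluoxetine female 1 and -0.018 without HT fluoxetine male 1, with other single omissions up to 0.11. The causes of these changes of sign were not tested.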
